A study of Mus musculus with 7 samples.

Results

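The expression of 10 genes of renal phosphate reabsorption, Klotho and vitamin D was followed in kidneys that lack the lamin B receptor (LBR). They were chosen by symbol: the sodium-phosphate cotransporters Slc34a1, Slc34a3, Slc20a1 and Slc20a2, the FGF23 co-receptor Kl (Klotho) with the FGF receptor Fgfr1, the parathyroid hormone receptor Pth1r, the vitamin D receptor Vdr, and the vitamin D hydroxylases Cyp24a1 and Cyp27b1. All 10 are among the 24328 gene symbols of the deposited files, and all 10 passed the filter on low values (a mean of at least 5 normalized counts over mice), which left 17283 genes. Slc34a1, Slc34a3 and Kl were the members with a mean more than 2-fold lower in LBR-null than in WT kidney, and Cyp24a1 and Cyp27b1 those with a mean more than 2-fold higher.

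The kidney filters phosphate and takes most of it back in the proximal tubule through cotransporters of the apical membrane. FGF23, a hormone from bone, binds an FGF receptor together with Klotho, and parathyroid hormone binds its own receptor, and both hormones withdraw the cotransporters from that membrane. The same tubule makes active vitamin D through CYP27B1 and destroys it through CYP24A1. FGF23 represses the first enzyme and induces the second, and active vitamin D acting through VDR induces the second as well.

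The study asked how loss of LBR, which sits in the membrane around the nucleus and anchors compact chromatin there, changes gene expression. LBR-null mice carried the genotype Lbric-J/ic-J, homozygous for a loss-of-function allele in every cell, and the control was a Lbr+/+ (WT) littermate. All were C57BL/6J mice of 4 weeks of age without treatment, and poly(A) RNA came from whole right kidney that was frozen and pulverized. LBR-null mice 4001 and 4007 and WT mouse 4009 gave 2 libraries each and LBR-null mouse 4002 gave 1, so the groups hold 3 mice and 1 mouse, and how much WT mice differ among themselves was not measured. The values are normalized counts, that is read counts over the size factor that DESeq2 gave each library. Libraries of a mouse were averaged, and the mouse was the replicate. Libraries of a mouse share their animal, so their closeness gives technical spread only.

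The 7 libraries held 20694016 to 26333284 reads on genes. Lbr itself was at 378 ± 81.8 normalized counts (SD, n = 3) in LBR-null kidneys and at 398 in the WT mouse, so its transcript level does not check the labels. The labels give no sex. Xist, transcribed from the inactive X chromosome, was at 5785, 65.3 and 9940 normalized counts in mice 4001, 4002 and 4007 and at 35.5 in the WT mouse, and the Y-linked Ddx3y was at 141, 1516, 44.3 and 1284. Mouse 4002 was thus the LBR-null mouse on the side of the WT mouse for both genes, and values for it alone are given for the 10 genes and, by count, for the pathway genes. Mouse 4001 was high in Xist and also held more Ddx3y than mouse 4007, for a reason that was not tested. The part of sex in the results was not tested. In whole kidney, fewer cells of a type and less RNA per cell cannot be told apart.

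Levels were first set against each other per length of exon. On this length-scaled level (normalized counts per kb of exon, scaled to 1000000 per mouse) Slc34a1 was first of the 10 in both groups, at 850 ± 354 (SD, n = 3) in LBR-null mice and 2469 in the WT mouse. Pth1r was second, at 249 ± 42.3 and 449. In LBR-null mice Vdr (87.9 ± 25.2), Kl (56.1 ± 5.66), Cyp24a1 (54.1 ± 36.2), Slc20a2 (45.8 ± 15.3), Cyp27b1 (34.0 ± 19.2), Slc20a1 (29.4 ± 7.13) and Fgfr1 (19.2 ± 4.62) followed, and Slc34a3 came last at 7.78 ± 1.58. The ranges over LBR-null mice overlapped for each neighbouring pair from Vdr to Fgfr1, and did not for Slc34a1 and Pth1r, Pth1r and Vdr, or Fgfr1 and Slc34a3. In the WT mouse the order after Pth1r was Kl (271), Vdr (76.3), Slc34a3 (62.0), Slc20a2 (30.6), Fgfr1 (21.5), Slc20a1 (21.1), Cyp27b1 (12.0) and Cyp24a1 (11.4). Cyp24a1 was thus number 10 in the WT mouse and number 5 in LBR-null mice, and Slc34a3 the reverse.

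**Figure D1:**
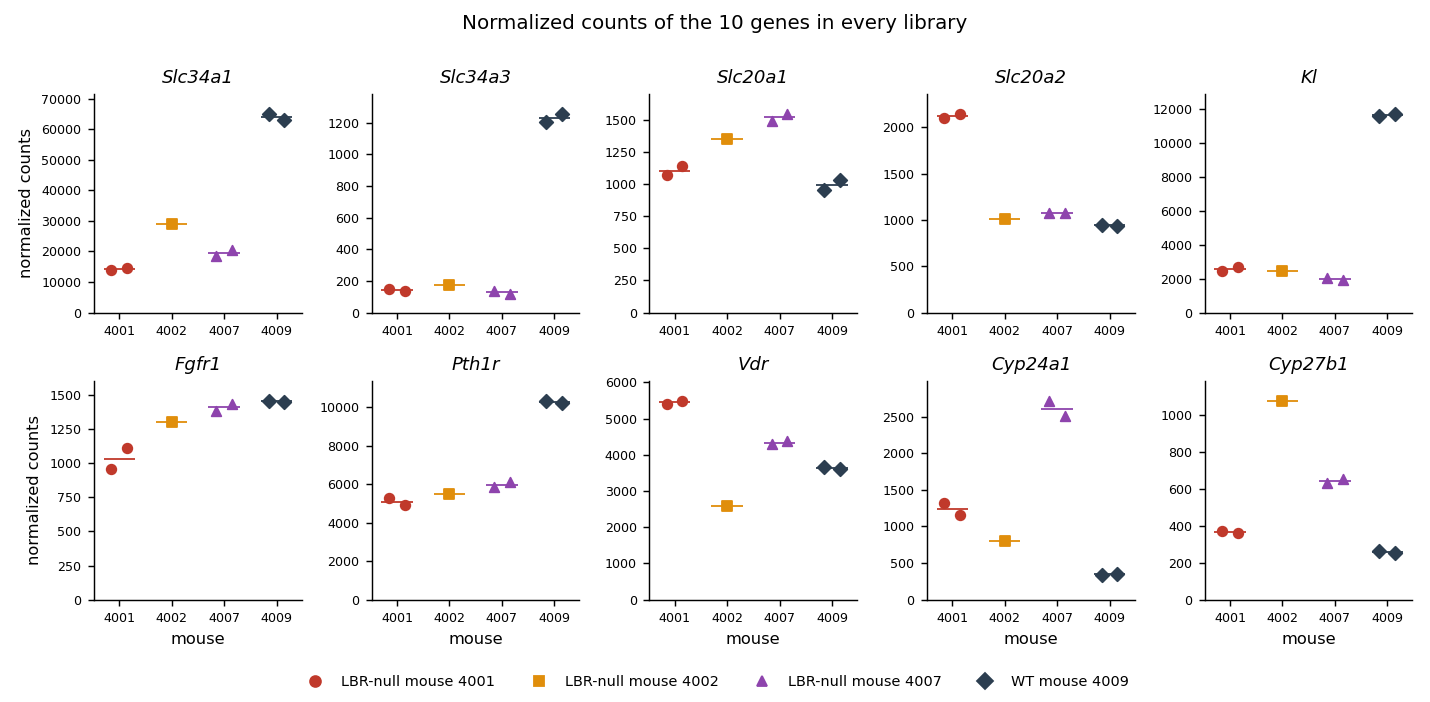
Normalized counts (y axes, each starting at 0) of the 10 genes in every library, by mouse (x axes). Points are libraries and lines are means of a mouse. Slc34a1, Slc34a3, Kl and Pth1r lie far below WT mouse 4009 in all 3 LBR-null mice, Cyp24a1 lies above it in all 3, and Vdr lies on both sides of it.

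Slc34a1 (NaPi-IIa), the main apical phosphate cotransporter of the proximal tubule, lies on the plus strand of chromosome 13 of mm9 from 55501009 to 55516056. Slc34a3 (NaPi-IIc), the second apical cotransporter of that family, lies on the minus strand of chromosome 2 from 25084418 to 25089884. Their promoters are shown because these cotransporters of one tubule segment were lower together. The RefSeq promoter windows used here span 250 bases before to 50 after a start on GRCm38.p6, and a window was found for 7 of the 10 members (not for Slc20a2, Cyp24a1 and Fgfr1). Capitals mark exact matches, on either strand, to the TATA box TATAAA, to the half-site GTTAAT of the tubule factor HNF1 and to the nuclear receptor half-site AGGTCA.
Slc34a1, plus strand, chr13:55399398-55399697: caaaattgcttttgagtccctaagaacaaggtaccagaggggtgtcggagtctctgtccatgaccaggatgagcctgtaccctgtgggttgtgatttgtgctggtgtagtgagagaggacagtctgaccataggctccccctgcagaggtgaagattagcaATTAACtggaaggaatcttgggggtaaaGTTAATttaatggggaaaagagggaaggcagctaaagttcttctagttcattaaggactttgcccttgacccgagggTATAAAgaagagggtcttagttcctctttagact
Slc34a3, minus strand, chr2:25234185-25234484: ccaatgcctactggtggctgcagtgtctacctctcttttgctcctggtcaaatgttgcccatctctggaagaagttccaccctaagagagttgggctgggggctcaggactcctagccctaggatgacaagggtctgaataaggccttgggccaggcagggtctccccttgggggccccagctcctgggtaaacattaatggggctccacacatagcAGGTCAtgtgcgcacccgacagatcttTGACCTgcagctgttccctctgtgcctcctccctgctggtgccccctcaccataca
The Slc34a1 window holds GTTAAT once on each strand, beginning 89 and 61 bases before the start, and TATAAA 16 bases after it. GTTAAT is in 7.10% of all 32851 windows and TATAAA in 13.6%. The Slc34a3 window holds AGGTCA once on each strand, beginning 33 and 6 bases before the start, a half-site that is in 16.3% of windows. The direct repeat of that half-site with 3 bases between its copies, an arrangement that the vitamin D receptor binds, is in 2 of all windows (0.006%) and in 0 of the 10 windows of members. With so few exact matches anywhere, this says nothing on whether members hold sites for the receptor, and Cyp24a1 has no window.

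Slc34a1 was at 14026 and 14641 normalized counts in the libraries of mouse 4001, 29136 in mouse 4002, and 18676 and 20612 in mouse 4007, against 65173 and 63024 in the WT libraries. Every LBR-null library lay below both WT libraries, with mouse 4002 the highest and mouse 4001 the lowest of the LBR-null mice. The LBR-null mean was 21038 ± 7499 (SD, n = 3 mice) against 64099 in the WT mouse, 3.05-fold lower. The log2 fold change was -1.67 with an SE of 0.51 (limma, unadjusted p = 0.0151, adjusted p = 0.158), so the difference exceeded the spread between LBR-null mice but did not pass adjustment over all genes.

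Slc34a3 was at 152 and 138 normalized counts in mouse 4001, 176 in mouse 4002 and 136 and 119 in mouse 4007, and at 1203 and 1257 in the WT libraries. The groups did not overlap, and the 3 LBR-null mice lay within a narrow range. Its LBR-null mean of 150 ± 24.6 (SD, n = 3) was 8.22-fold lower than the WT value of 1230. On the log2 scale the difference was -3.04 with an SE of 0.31 (limma, adjusted p = 0.0634).

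Slc20a1 (PiT-1) and Slc20a2 (PiT-2) belong to the other family of sodium-phosphate cotransporters, which most cells carry, and PiT-2 also reaches the apical membrane of the proximal tubule. Slc20a1 lies on the plus strand of chromosome 2 from 129024500 to 129037352, and Slc20a2 on the plus strand of chromosome 8 from 23587172 to 23680079. Slc20a1 was at 1069, 1142, 1352, 1489 and 1549 normalized counts in the LBR-null libraries (in the order 4001, 4001, 4002, 4007, 4007) and at 950.5 and 1029 in the WT libraries. The lowest LBR-null library lay just above the higher WT library, and the log2 fold change of 0.41 with an SE of 0.27 did not pass the test (limma, adjusted p = 0.464). Slc20a2 was at 2102 and 2146 in mouse 4001, but at 1013 in mouse 4002 and at 1075 and 1076 in mouse 4007, against 942 and 937 in the WT libraries. Mouse 4001 stood well apart from WT and mice 4002 and 4007 lay just above it, and the log2 fold change was 0.49 with an SE of 0.44 (limma, adjusted p = 0.599).

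The make-up of the 4 cotransporters therefore differed between mice. Their length-scaled levels summed to 597, 1289 and 911 in mice 4001, 4002 and 4007 and to 2583 in the WT mouse. Slc34a1 made up 84.7%, 94.1% and 91.1% of that sum in the LBR-null mice and 95.6% in the WT mouse, and Slc34a3 made up 1.12%, 0.745% and 0.775% against 2.40%. Slc20a2 made up 10.6% in mouse 4001, 2.76% and 4.22% in mice 4002 and 4007, and 1.18% in the WT mouse. Slc34a1 exceeded Slc34a3 by 75.6-fold, 126-fold and 118-fold in the LBR-null mice and by 39.8-fold in the WT mouse, so Slc34a3 was the more reduced of the pair in every LBR-null mouse. These shares were not tested. Gene models on the opposite strand overlap Slc34a1 (Pfn3), Slc20a1, Slc20a2, Fgfr1 and Cyp24a1 (Pfdn4), Gm17491 overlaps Slc20a2 by 3040 bases on its own strand, and whether counting used strand is not given in the sources used here, so reads from these overlaps could not be told apart.

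**Figure D2:**
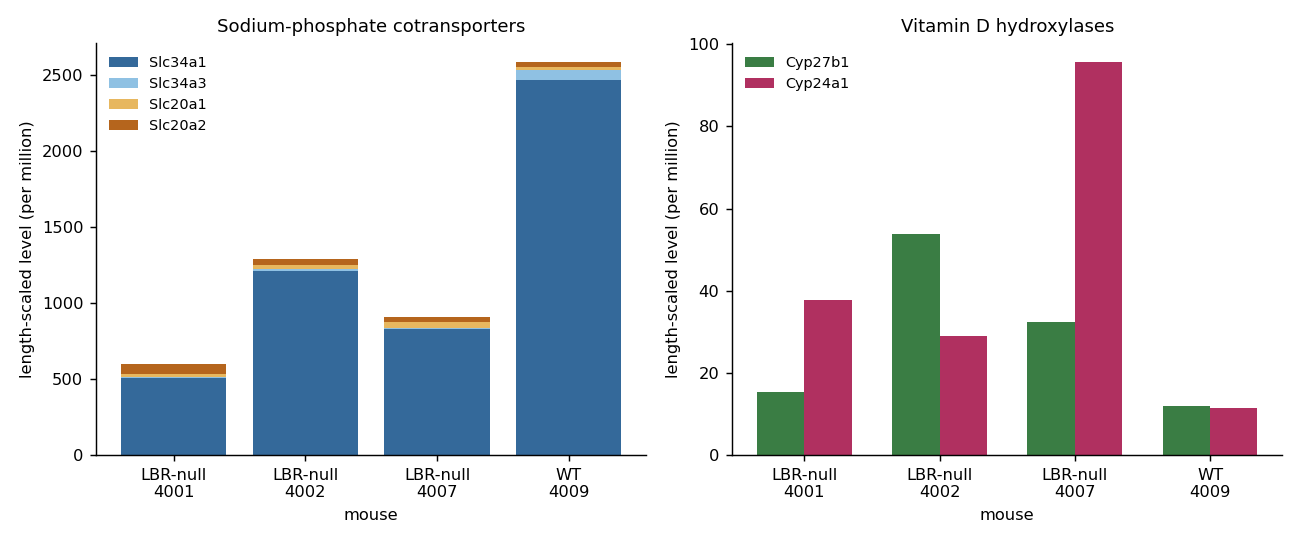
Length-scaled levels (y axes, normalized counts per kb of exon scaled to 1000000 per mouse) by mouse (x axes), with 1 bar or stack per mouse and no error bars. Left, the 4 sodium-phosphate cotransporters sum to 597, 1289 and 911 in the LBR-null mice and 2583 in the WT mouse. Right, Cyp24a1 exceeds Cyp27b1 in mice 4001 and 4007, lies below it in mouse 4002 and is near it in the WT mouse.

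Kl encodes Klotho, which the distal tubule expresses most and the proximal tubule less, and lies on the plus strand of chromosome 5 from 151755182 to 151796384. Its promoter window is shown because Kl had the second lowest fold change of the 10 genes. It holds none of the motifs searched.
Kl, plus strand, chr5:150952357-150952656: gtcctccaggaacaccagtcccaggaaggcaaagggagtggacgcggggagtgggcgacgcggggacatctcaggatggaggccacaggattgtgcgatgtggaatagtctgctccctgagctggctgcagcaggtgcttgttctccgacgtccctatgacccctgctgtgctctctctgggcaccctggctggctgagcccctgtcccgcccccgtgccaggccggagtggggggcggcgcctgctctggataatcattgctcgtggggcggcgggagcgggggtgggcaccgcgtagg
Kl was at 2457 and 2707 normalized counts in mouse 4001, 2475 in mouse 4002 and 2060 and 1940 in mouse 4007, against 11579 and 11720 in the WT libraries. The 5 LBR-null libraries lay close together and far below both WT libraries. The LBR-null mean of 2353 ± 310 (SD, n = 3) was 4.95-fold lower than the WT value of 11650, with a log2 fold change of -2.32 and an SE of 0.27 (limma, adjusted p = 0.0675).

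Fgfr1, the receptor that Klotho turns into a receptor for FGF23, lies on the plus strand of chromosome 8 from 26624126 to 26686186. It was at 956.5 and 1112 normalized counts in mouse 4001, 1300 in mouse 4002, 1383 and 1437 in mouse 4007, and 1458 and 1452 in the WT libraries. Every LBR-null library was below the WT libraries, and mouse 4007 came closest to them. The log2 fold change was -0.23 with an SE of 0.27 (95% interval -0.88 to 0.42; limma, adjusted p = 0.689), so a difference of the size seen for Kl lies outside the interval.

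Pth1r, the receptor through which parathyroid hormone lowers phosphate reabsorption, lies on the minus strand of chromosome 9 from 110624592 to 110649649. It was at 5273 and 4905 normalized counts in mouse 4001, 5486 in mouse 4002, 5840 and 6123 in mouse 4007, and 10351 and 10252 in the WT libraries. The 3 LBR-null mice were alike and all lay below WT, at a mean of 5519 ± 447 (SD, n = 3) against 10302, 1.87-fold lower. On the log2 scale this was -0.90 with an SE of 0.27 (limma, unadjusted p = 0.0146, adjusted p = 0.156).

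Vdr, the nuclear receptor for active vitamin D, lies on the minus strand of chromosome 15 from 97684856 to 97741061. It was at 5397 and 5493 normalized counts in mouse 4001, 2591 in mouse 4002, 4285 and 4377 in mouse 4007, and 3656 and 3600 in the WT libraries. Mice 4001 and 4007 lay above WT and mouse 4002 below it, and Vdr was the 1 member whose groups overlapped. The log2 fold change was 0.12 with an SE of 0.43 (limma, adjusted p = 0.914), and without mouse 4001 it was -0.12.

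Cyp24a1, the 24-hydroxylase that inactivates vitamin D, lies on the minus strand of chromosome 2 from 170308208 to 170322645. It was at 1317 and 1157 normalized counts in mouse 4001, 802 in mouse 4002, 2717 and 2503 in mouse 4007, and 340 and 346 in the WT libraries. All LBR-null libraries lay above both WT libraries, and mouse 4007 held more than any other. The LBR-null mean of 1550 ± 943 (SD, n = 3) was 4.52-fold the WT value of 343. The log2 fold change was 2.0 with an SE of 0.60 (limma, unadjusted p = 0.0147, adjusted p = 0.157).

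Cyp27b1, the 1-alpha-hydroxylase that makes active vitamin D, lies on the plus strand of chromosome 10 from 126485306 to 126490062. It was at 371 and 362 normalized counts in mouse 4001, 1080 in mouse 4002, 630.5 and 654 in mouse 4007, and 264 and 255 in the WT libraries. The order of the LBR-null mice differed from that of Cyp24a1, since mouse 4002 held the most Cyp27b1 and the least Cyp24a1. The LBR-null mean of 696 ± 360 (SD, n = 3) was 2.68-fold the WT value of 259, and the log2 fold change was 1.28 with an SE of 0.56 (limma, adjusted p = 0.287). Without mouse 4002 it was 0.90, under the 2-fold limit. The length-scaled ratio of Cyp24a1 to Cyp27b1 came to 2.44, 0.537 and 2.94 in mice 4001, 4002 and 4007, against 0.956 in the WT mouse. The hydroxylase that destroys vitamin D was thus the higher of the pair in mice 4001 and 4007 and the lower in mouse 4002.

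**Figure D3:**
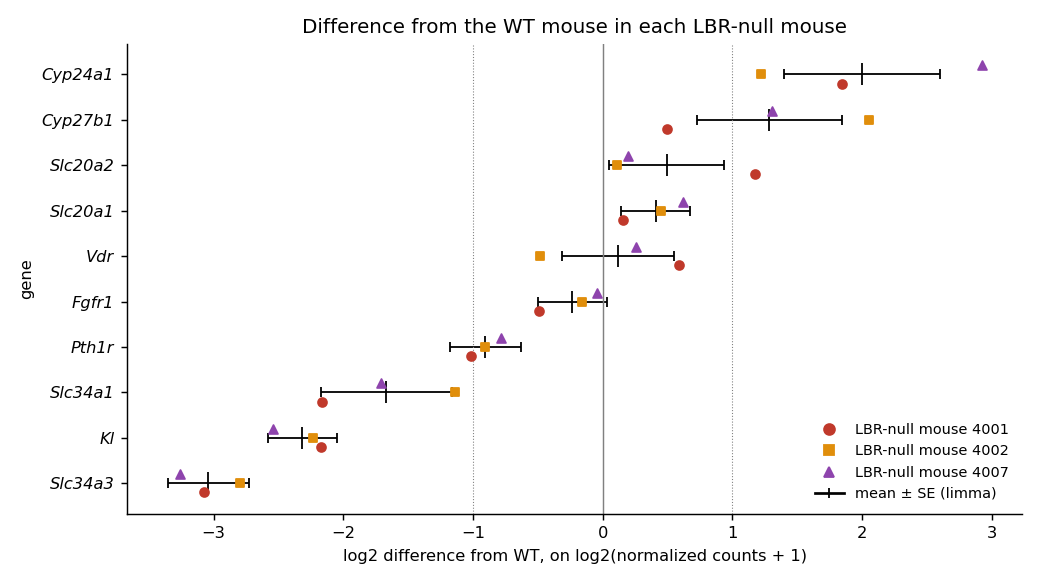
Log2 difference of each LBR-null mouse from the WT mouse (points; x axis, on log2(normalized counts + 1)) for the 10 genes (y axis), with the mean and the SE of the limma fit in black and dotted lines at 2-fold. Slc34a3 (-3.04), Kl (-2.32) and Slc34a1 (-1.67) lie below the lower line in all 3 mice, Cyp24a1 (2.0) lies above the upper line in all 3, and Cyp27b1 (1.28) does in 2.

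Over the set, limma called 0 members (adjusted p under 0.05 and 2-fold), as it called 0 of the 17283 genes tested (0%). At an unadjusted p under 0.05, 4 members were lower (Slc34a1, Slc34a3, Kl and Pth1r), against 8.05% of genes, and 1 was higher (Cyp24a1), against 10.7%. Of the 10 members 3 had a 2-fold lower mean (7.54% of genes) and 2 a 2-fold higher one (12.8% of genes). edgeR on the recovered reads called Slc34a3 lower (adjusted p = 0.0335) and no member higher, where it called 0.156% of genes lower and 0.00579% higher. DESeq2 called Slc34a1, Slc34a3 and Kl lower and Cyp24a1 higher, where it called 3.48% of genes lower and 3.24% higher. All LBR-null libraries lay below both WT libraries for 5 members (25.7% of genes) and above them for 4 (25.5% of genes), so separation of the libraries alone is common here. In mouse 4002 alone, the same 3 members were 2-fold lower than WT (6.92% of genes) and the same 2 were 2-fold higher (11% of genes), with log2 differences from WT of -1.14 for Slc34a1, -2.80 for Slc34a3, -2.23 for Kl, 1.22 for Cyp24a1 and 2.05 for Cyp27b1. The limma count depended on single mice: without mouse 4001 it called Slc34a3, Kl and Cyp27b1 (and 6.76% of genes), without mouse 4002 Slc34a3, Kl and Cyp24a1 (3.62% of genes), without library 4007-2 Slc34a3 and Kl (0.168% of genes), and without mouse 4007 no gene at all. The median log2 fold change of the 10 members was -0.06, and that of all genes tested was 0.01.

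The other genes of these pathways were taken from 9 lists with 59 genes, of which 55 were tested. Limma called 0 of them, and their median log2 fold change was -0.21. A 2-fold lower mean was found for 7 (12.7%, against 7.54% of all genes) and a 2-fold higher mean for 7 (12.7%, against 12.8%). At an unadjusted p under 0.05, 11 were lower (20.0%, against 8.05%) and 7 were higher (12.7%, against 10.7%). Of the 7 higher genes, Fgf23, Phex and Pthlh had a WT mean under the filter of 5 normalized counts, so they were tested only because they were high in LBR-null mice, and their values are given as a description. In mouse 4002 alone, 6 of the 7 lower genes were 2-fold lower than WT, with Pdzd3 at a log2 difference of -0.96. There 4 of the 7 higher genes (Fgf23, Dmp1, Pthlh and Cyp27a1) were 2-fold higher, and Ip6k2 (0.96), Gc (0.80) and Phex (0.61) were not. Both sets of 7 were chosen on a mean that includes mouse 4002, so these counts are a description. They are 10.9% and 7.3% of the 55 genes tested. Among all genes, without that choice, 6.92% were 2-fold lower and 11% 2-fold higher in mouse 4002.

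Of 4 further phosphate transporters, 1 had a 2-fold lower mean. Slc17a3, an organic anion carrier of a family first described as phosphate transporters, was at 163 to 275 normalized counts in the LBR-null libraries and at 2584 and 2703 in the WT libraries, 11.4-fold lower in the mean (log2 fold change -3.53, SE 0.35; limma, adjusted p = 0.0584). Xpr1, the phosphate exporter, had a log2 fold change of -0.36 with an SE of 0.26 and overlapped between groups. Of the 5 scaffolds that hold the apical cotransporters in place, Pdzk1 and Pdzd3 had 2-fold lower means. Pdzk1 was at 5192 to 8990 normalized counts in LBR-null libraries and 28733 and 28666 in the WT libraries, 3.83-fold lower (log2 fold change -1.98, SE 0.40; limma, adjusted p = 0.103). Pdzd3 was at 501 to 730 against 1388 and 1449, 2.21-fold lower (log2 fold change -1.15, SE 0.25; limma, adjusted p = 0.113). Ezr, which links the scaffolds to actin, overlapped between groups at a log2 fold change of 0.03.

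Among 10 genes of FGF23, its receptors and its processing, 9 were tested and 3 had 2-fold higher means. Fgf23, whose main source is bone, was at 29.9, 27.5, 18.1, 21.4 and 24.6 normalized counts in the LBR-null libraries and at 3.15 and 0.905 in the WT libraries, which is 21 to 31 reads against 4 and 1. At so few WT reads its log2 fold change depends on the processing, at 2.98 with a pseudocount of 1, 1.99 with a pseudocount of 5 and up to 3.65 under other alternatives. Phex and Dmp1, which restrain FGF23 in bone, were at 4.30 to 16.8 and at 12.6 to 29.8 normalized counts, against at most 3.15 and 7.87 in a WT library. With a pseudocount of 5 Phex was at a log2 fold change of 0.87, under the 2-fold limit. Fgfr2, Fgfr3 and Fgfr4, the other FGF receptors, had log2 fold changes of 0.43, 0.06 and -0.69. The 3 proteases that can shed Klotho from the cell surface had log2 fold changes of -0.38 to -0.12. Of 7 feedback and target genes of FGF receptor signalling, 0 had a 2-fold change, and the lowest was Spry4, an inhibitor of that signalling, at -0.92 with an SE of 0.36 (limma, adjusted p = 0.237).

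Of 7 genes of parathyroid hormone ligands, receptors and cAMP signalling, 5 were tested. Pth, the hormone itself, is listed at 0 in every library. Pthlh, a ligand that shares the receptor, was at 14.0 to 41.3 normalized counts in LBR-null libraries and 3.15 and 4.52 in the WT libraries. Prkaca, the catalytic subunit of protein kinase A, had a log2 fold change of -0.63 with an SE of 0.26. Among 6 other factors that lower or sense phosphate, Sfrp4, a secreted Wnt inhibitor that promotes phosphate loss, was at 3.44 to 11.8 normalized counts in LBR-null libraries and 70.1 and 66.9 in the WT libraries, 8.42-fold lower (log2 fold change -3.06, SE 0.72; limma, adjusted p = 0.115). Stc2, a stanniocalcin, was 2.22-fold lower at 122 ± 20.2 (SD, n = 3) against 271. Ip6k2, a kinase of the inositol pyrophosphates that report phosphate supply, was 2.32-fold higher at 3016 ± 777 (SD, n = 3) against 1297.

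In the list of vitamin D hydroxylases, partner receptors and uptake, 10 of 10 genes were tested, and 1 had a 2-fold lower and 2 a 2-fold higher mean. Cyp27a1, a mitochondrial sterol hydroxylase that can also act on vitamin D, was at 1269 to 2984 normalized counts in LBR-null libraries and 417 and 397 in the WT libraries, 4.60-fold higher (log2 fold change 2.09, SE 0.49; limma, adjusted p = 0.115). Gc, the vitamin D binding protein that is made mainly by liver, was at 5192 and 4582 in mouse 4001, 889 in mouse 4002, and 4111 and 3948 in mouse 4007, against 530 and 489 in the WT libraries. Lrp2 (megalin), which takes up the binding protein from the filtrate, was at 5398 to 12525 against 23313 and 23327, 2.85-fold lower (log2 fold change -1.59, SE 0.47; limma, adjusted p = 0.151). Its partner Cubn had a log2 fold change of -0.98 with an SE of 0.38. Of 7 calcium transport genes that vitamin D is known to induce, Slc8a1, the sodium-calcium exchanger, was 2.32-fold lower at 1685 ± 402 (SD, n = 3) against 3914 (log2 fold change -1.24, SE 0.31; limma, adjusted p = 0.120). S100g, the small calcium-binding protein that vitamin D induces, was at 39624 ± 11747 (SD, n = 3) against 23239, whereas Calb1 was at 8703 ± 3662 against 13593, and neither passed the test.

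**Figure D4:**
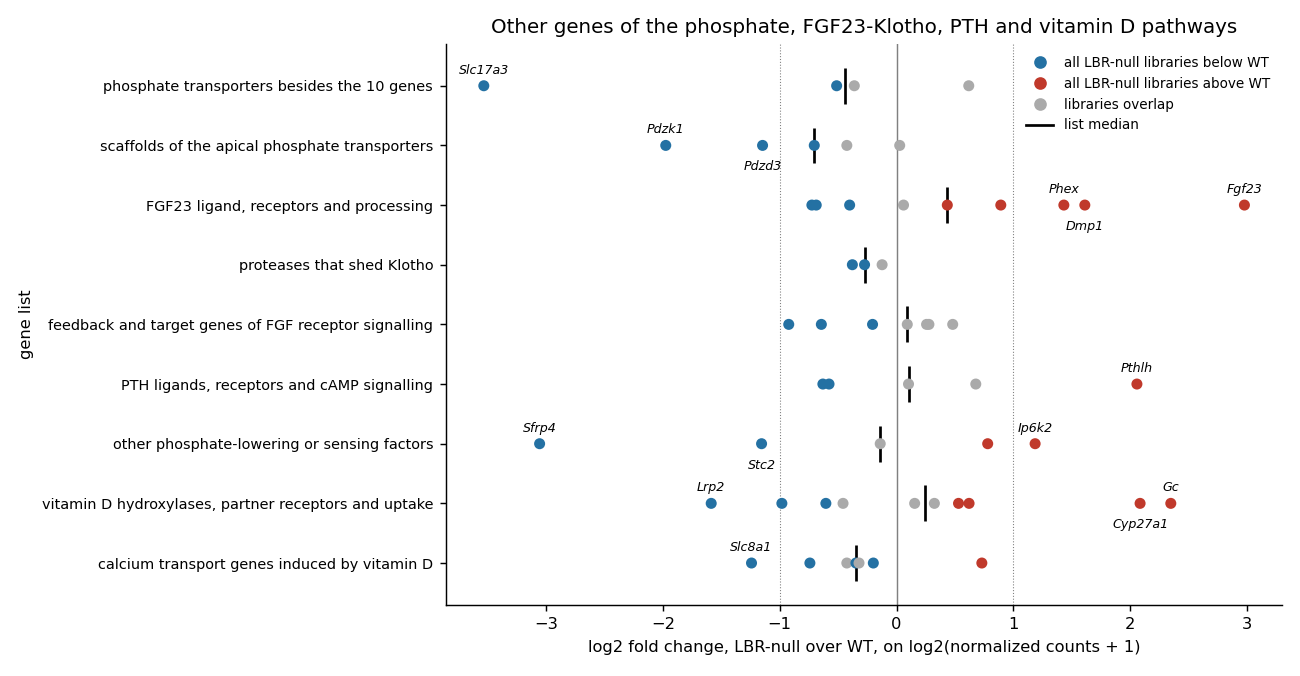
Log2 fold change of LBR-null over WT (x axis, on log2(normalized counts + 1)) for the 55 tested genes of 9 pathway lists (y axis), 1 point per gene, coloured by whether all LBR-null libraries lay on one side of both WT libraries, with the list median as a black line. The 7 genes below and 7 above the dotted 2-fold lines are named, from Slc17a3 (-3.53) to Fgf23 (2.98, with few WT reads).

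Markers of the cells that carry these genes also differed. Of 14 proximal tubule markers, 8 had 2-fold lower means (7.54% of all genes) and 2 had 2-fold higher means (12.8% of all genes), with a median log2 fold change of -1.56. Miox, an inositol oxygenase, was at 2248, 7593 and 2603 normalized counts in mice 4001, 4002 and 4007 against 64152 in the WT mouse, whereas the amino acid transporter Slc6a19 was at 9434, 1506 and 7504 against 1081. Aqp1, the water channel of this segment, was at 37315, 22028 and 23239 against 17029, and Hnf4a, a transcription factor of the segment, at 11949, 6624 and 9965 against 11810. The summed markers ran from 131076 to 196547 in LBR-null mice and came to 236783 in the WT mouse. Of 8 markers of the distal convoluted and connecting tubule, where Klotho is high, 1 was 2-fold lower (Pvalb) and 1 was 2-fold higher (Trpm6), to be read against the same shares of all genes, and their sum was 69283 to 72459 against 112721. A few abundant markers carry both sums. Slc27a2, a fatty acid transport gene, was at 92178, 63528 and 67684 normalized counts in mice 4001, 4002 and 4007 against 51706 in the WT mouse and was the most abundant proximal marker in each LBR-null mouse, whereas Miox made up 27.1% of the proximal sum in the WT mouse. The protease gene Klk1 made up 72.4% of the distal sum there. Without Miox the proximal sum was 194299, 123483 and 140168 in mice 4001, 4002 and 4007 against 172632 in the WT mouse, so mouse 4001 lay above it. Without Klk1 the distal sum was 1.04-fold, 1.48-fold and 1.33-fold lower in the same mice. The median log2 difference from WT over the proximal tubule markers was -1.0, -1.60 and -1.81 by mouse, beside -2.16, -1.14 and -1.71 for Slc34a1 and -3.08, -2.80 and -3.26 for Slc34a3. Over the distal markers it was -0.15, -0.82 and -0.63, beside -2.17, -2.23 and -2.54 for Kl. Neutrophil markers summed to 1713, 668 and 2958 in mice 4001, 4002 and 4007 and to 305 in the WT mouse, and liver markers to 21850, 11150 and 9507 against 6163. Of the 7 neutrophil markers, 6 had 2-fold higher means (12.8% of all genes). Lcn2, which the paper also detected in renal tubular cells, held 684, 293 and 564 of the neutrophil sums and 227 of that in WT. Ltf was at 10.3 in mouse 4002, below the WT value of 17.2. Single genes carry the liver sums too: Alb was at 8759, 2245 and 1546 against 1565, Serpina1a at 7495, 4395 and 5637 against 1369, and Ttr at 4004, 4129 and 1642 against 2968, so in mouse 4007 Alb and Ttr lay below WT. The part of these shifts in the values of the 10 genes was not tested.

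The genes most like Slc34a1, Kl and Cyp24a1 across the 7 libraries were sought among 13058 genes with a mean of at least 50 normalized counts, by Pearson's r of log2(normalized counts + 1). Libraries of a mouse share their animal, so r is a description. For Slc34a1 they were Iqsec2 (r = 0.999), Slc35b4 (0.998) and Xylb (0.998), a xylulokinase. For Kl they were Atp6v0e2 (0.999), 9030617O03Rik (0.998) and Fbln5 (0.997), an elastic fibre protein. For Cyp24a1 they were Ssh2 (0.995), Rasd1 (0.994) and Rnf166 (0.992). An r over 0.95 was reached by 597 genes with Slc34a1, 589 with Kl and 208 with Cyp24a1, so likeness of this kind is common among genes here.

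Base composition around the annotated start was compared because the study sorts genes by CpG islands. In the 1001 bases centred on the outermost annotated start in mm9, 4 members (Slc20a1, Slc20a2, Kl and Cyp24a1) had a GC content of at least 50% and a CpG ratio (observed over the number that base composition predicts) above 0.6, against 57.9% of 14931 protein-coding genes tested. Kl was at 66.0% GC with a CpG ratio of 0.724, and Cyp24a1 at 61.5% with a ratio of 0.679. Slc34a1 (0.122), Slc34a3 (0.102), Vdr (0.111), Pth1r (0.215), Cyp27b1 (0.247) and Fgfr1 (0.280) had CpG ratios under the median of 0.671. Both kinds of outermost start thus occurred among members that were lower and among members that were higher in LBR-null kidneys. Other starts of a gene, such as those of the further promoter windows of Pth1r, were not scored. A low ratio here therefore does not show that a gene lacks a CpG-rich start elsewhere. This window is simpler than an island search and was not used to sort genes.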

How the data were processed

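Poly(A) RNA-seq of mouse kidney was used for 3 LBR-null mice (5 libraries) and 1 WT mouse (2 libraries). Per the submitters' notes the authors used STAR 2.6.0 with the mm9 genome, and they deposited for every gene symbol a signal, the read count over a size factor from DESeq2 1.25.1. The counting program and its annotation are not given in the sources used here. All values (100%) were whole multiples of 1 read within 0.01 read, so reads were recovered. 1 read was worth 0.787 to 1.15 normalized counts, and the depth ratio between libraries was at most 1.273, which limits genes of a few reads most.

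Groups came from the genotype labels. Libraries were averaged per mouse. The main test was limma 3.58.1 in R 4.3.3 (eBayes, trend on) of log2(normalized counts + 1). It took the 17283 genes whose mean reached 5, p-values were adjusted by Benjamini-Hochberg, and a call required an adjusted p under 0.05 and a 2-fold change. Residual degrees of freedom were 2, which assumes that WT mice vary like LBR-null mice. Every fold change on this log2 scale is understated for genes of low level. edgeR 4.0.16 and DESeq2 1.42.0 were run on recovered reads summed per mouse, and DESeq2 left 671 genes without an adjusted p. In simulated counts for 3 mice against 1, limma called 200 of 200 genes changed by 2 on the log2 scale at a dispersion of 0.02 (17272 genes), and 70 of 200 at a dispersion of 0.1 (17217 genes). In the same simulations 52 and 1221 unchanged genes passed the 2-fold limit alone. Every gene had the same dispersion in a simulation, and neither value was estimated from these mice. The simulations therefore do not give the power of the test in these data.

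Length-scaled levels used union exon lengths of mm9 gene models (GENCODE vM1), which matched 85.5% of symbols. Promoter windows came from RefSeq (GRCm38.p6), and mm9 coordinates were not converted to that build. Other pathway genes were named when tested, changed at least 2-fold and with all LBR-null libraries on one side of both WT libraries, and list members without that property are named in places after their values were seen. The members, lists and tests were chosen with earlier results of these data known. Pairing was checked: libraries of the same number in different mice correlated at -0.054 to 0.025 between LBR-null and WT mice. Between LBR-null mice 4001 and 4007, libraries of the same number correlated at -0.760 and -0.683. Those of different number there correlated at -0.753 and -0.667. The numbers name libraries of a mouse, not pairs.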

Additional observations from a re-analysis of the deposited data

Results flagged for a closer look

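Values that lay apart from the other libraries were sought among the 5 LBR-null libraries for the 10 genes and the 14 named pathway genes, by Dixon's gap over range against a critical value of 0.71. Of 24 genes, 2 had such a library. The usual chance rate of about 1 in 20 assumes independent values and does not hold here, since the 5 libraries come from 3 mice. Mice 4001 and 4007 have 2 close libraries each, which mask each other in this measure, so that none of the 10 genes had such a library says little. Slc20a2, at 2102 and 2146 normalized counts in mouse 4001 against 1013 to 1076 in the other LBR-null libraries, did not reach the critical value. Pthlh was at 41.3 normalized counts in library 4001-1, against 14.0 to 21.3 in the other LBR-null libraries, including 21.3 in library 4001-2 of the same mouse. Gc was at 889 normalized counts in library 4002-1, the one library of its mouse, against 3948 to 5192 in the other LBR-null libraries.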

How the results depend on the processing

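With 1 WT mouse the error rests on 3 LBR-null mice, and the number of calls differed between models. The 3 members with a 2-fold lower mean (Slc34a1, Slc34a3 and Kl) kept that count under every alternative run. limma called 0 members and 0 genes, edgeR called 1 member and 28 genes, DESeq2 called 4 and 1117, and limma on 7 libraries with the mouse as a random effect called 4 and 847. A replicate block could be fitted over the 6 numbered libraries, which leaves out mouse 4002. It called 4 members and 1313 genes, and 1 member was 2-fold higher, the same count as without mouse 4002 and no block. A mean of at least 50 left 1 gene called and 3 pathway genes 2-fold higher. When single mice or libraries were left out, 0 to 3 members and 0 to 1163 genes were called and 1 to 2 members were 2-fold higher, and the log2 fold change of Vdr ran from -0.12 (without mouse 4001) to 0.42. The cause of these shifts was not tested. Equal totals and TMM scaling moved the median of all genes by -0.007 and -0.029 on the log2 scale. Members whose libraries did not overlap were 5 lower and 4 higher in the main run. With equal totals they were 4 and 3, and without mouse 4002 they were 5 and 5. For 24 named genes under 20 alternatives, 409 of 475 values kept their direction and stayed uncalled. Another 65 passed the limits for a call (adjusted p under 0.05 and 2-fold), and 1 reversed. The 2-fold limit alone was not followed in this count. Phex, Cyp27b1 and Ip6k2 each fell under it in some alternative, to log2 fold changes of 0.87, 0.90 and 0.98 at the lowest. Mouse 4002 alone, chosen after seeing the data, gave the same counts of 2-fold members. Depth limits Fgf23, Phex, Dmp1 and Pthlh, which had few reads.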
